A study of Mus musculus with 4 samples.

Results

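The natriuretic peptide system was represented by 7 genes of the 36814 rows in the deposited table, taken by their symbols: the peptide genes Nppa, Nppb and Nppc, the receptor genes Npr1, Npr2 and Npr3, and Corin. RNA was sequenced from heart ventricles of mice at postnatal day 14 with the atria removed, in 2 Hnrnpu mutant and 2 wild type animals, each group holding 1 male and 1 female on a mixed C57BL/6 & 129 S4 background. The mutants combined a conditional Hnrnpu allele with a Ckmm-Cre transgene, in which a muscle creatine kinase promoter drives the recombinase in striated muscle; whether the wild type animals carried the Cre transgene or the conditional allele is not given in the sources used here. The authors gave 1 RPKM value (a read number scaled for the length of the transcript and the size of the library) per group, so no level below has a spread between animals, and whether groups overlapped animal by animal was not analysed here.

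Natriuretic peptides are hormones that lower blood volume and vascular tone and restrain growth of heart muscle. Nppa codes for atrial natriuretic peptide (ANP) and Nppb for brain natriuretic peptide (BNP); both are made by cardiomyocytes, strongly in the fetal ventricle and, after birth, mainly in the atria unless the ventricle is under load. Nppc codes for C-type natriuretic peptide, a product of endothelial cells and cartilage. Corin is a membrane protease of cardiomyocytes that cuts the ANP precursor into its active form. Npr1 and Npr2 are receptors that make cGMP, the first for ANP and BNP and the second for C-type peptide, whereas Npr3 lacks the cyclase domain and clears the peptides from the circulation.

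The sequences before the start sites of both peptide genes that rose and of the protease gene that fell are shown because these genes changed in opposite directions. Each line gives the 250 bases before the RefSeq start site (GRCm38.p6), read 5′ to 3′ on the strand of the gene. These are chr4:148000472-148000721 on the plus strand for Nppa, chr4:147985650-147985899 on the plus strand for Nppb and chr5:72504541-72504790 on the minus strand for Corin. Capitals mark, on either strand, the GATA-type motifs AGATAA and TGATAA, the NKX2-5 motif AAGTG, the MCAT motif CATTCC, the T-box motif GGTGTGA and the TATA motif TATAAA.
Nppa: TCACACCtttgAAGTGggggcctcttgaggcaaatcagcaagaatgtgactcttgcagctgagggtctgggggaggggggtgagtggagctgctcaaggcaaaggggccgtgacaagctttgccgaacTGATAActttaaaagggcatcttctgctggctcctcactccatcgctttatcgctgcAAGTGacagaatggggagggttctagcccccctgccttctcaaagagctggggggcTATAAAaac
Nppb: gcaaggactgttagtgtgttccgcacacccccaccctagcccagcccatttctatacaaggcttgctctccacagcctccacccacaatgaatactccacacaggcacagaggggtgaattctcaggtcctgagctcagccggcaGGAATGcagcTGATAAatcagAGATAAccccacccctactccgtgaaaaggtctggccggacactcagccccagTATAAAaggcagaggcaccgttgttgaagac
Corin: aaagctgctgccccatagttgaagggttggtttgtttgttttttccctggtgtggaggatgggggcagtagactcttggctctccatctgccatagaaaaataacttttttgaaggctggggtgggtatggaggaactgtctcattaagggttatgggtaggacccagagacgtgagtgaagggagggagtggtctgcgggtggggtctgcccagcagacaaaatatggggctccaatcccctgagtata
The Nppa window held TGATAA from position -122 (the base before the start counts as -1), AAGTG from -239 and -65, the T-box motif on the other strand from -250, and TATAAA from -9. The Nppb window held the MCAT motif on the other strand from -105, TGATAA from -95, AGATAA from -84 and TATAAA from -31. The Corin window held none of the capitalised motifs. Nor did the windows of Npr3, which rose, or of Npr1 and Npr2, which did not pass the test (not printed). The lack of these motifs is therefore not particular to the gene that fell. Of 32851 windows of the same length, 7.94% held TGATAA, 9.99% AGATAA, 12.6% the MCAT motif, 40.7% AAGTG, 3.33% the T-box motif and 12.4% TATAAA. The CArG box, the AP-1 motif TGANTCA, the CRE motif TGACGTCA and the ATF4 motif TTGCATCA matched in none of the windows of the 7 genes, against 1.47%, 6.75%, 1.55% and 0.791% of all windows. The E-box CANNTG matched in 5 of the 7 windows, against 66.2% of all, and 1 of its matches in Nppa overlapped the AAGTG at -65. All motifs were searched on both strands, and a match is a description of letters. The Nppa start used here is also a start in GENCODE M21, whereas the nearest GENCODE starts lay 112 bases away for Nppb and 67 for Corin, so positions depend on the annotation.

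Hnrnpu itself was listed at 15.2 RPKM in mutant ventricles, against 32.7 RPKM in wild type ventricles, and did not pass the test in the authors' deposited table (log2 fold change -1.10, adjusted p = 0.438). The light chain genes that mark the labelled tissue did not pass the test, with Myl2 at 997 and 1230 RPKM and Myl3 at 1080 and 1220 RPKM in mutant and wild type ventricles. The number of reads behind a value was estimated from the worth of 1 read, which RNAs of 1 exon reveal. The 120 lowest values in mutant and the 98 lowest in wild type all lay within 3% of 1 of 2 steps in RPKM times length. The steps were 6.54 and 8.97 in mutant and 17.1 and 20.1 in wild type. By this estimate the mutant samples were sequenced more deeply, so depth differed along with genotype. A value of 0 near the floor was thus easier to reach in wild type. By these steps, and with exonic lengths from a later annotation, Nppc rested on 9 to 13 reads in mutant and 7 to 9 reads in wild type ventricles, and each of the other 6 genes on at least 2420 reads in mutant and 481 reads in wild type ventricles. P-values are the authors' own, from their model across the table with 2 samples per group. How far each rests on the spread of that gene between animals is not given in the sources used here.

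Of the 7 genes, Nppa, Nppb and Npr3 rose, Corin fell, and Nppc, Npr1 and Npr2 did not pass the threshold of an adjusted p of 0.05. As background, 3.51% of the 24454 tested rows passed that threshold, 2.03% higher and 1.48% lower in mutant ventricles. The same shares are the background for the counts of calls in every gene list below. No such share is given for an unadjusted p under 0.05, so counts at that level are descriptive only. The median log2 fold change of the 7 genes was -0.24, beside 0.07 over all tested rows. The peptide genes of heart muscle and the clearance receptor were thus higher, and the processing protease was lower.

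**Figure D1:**
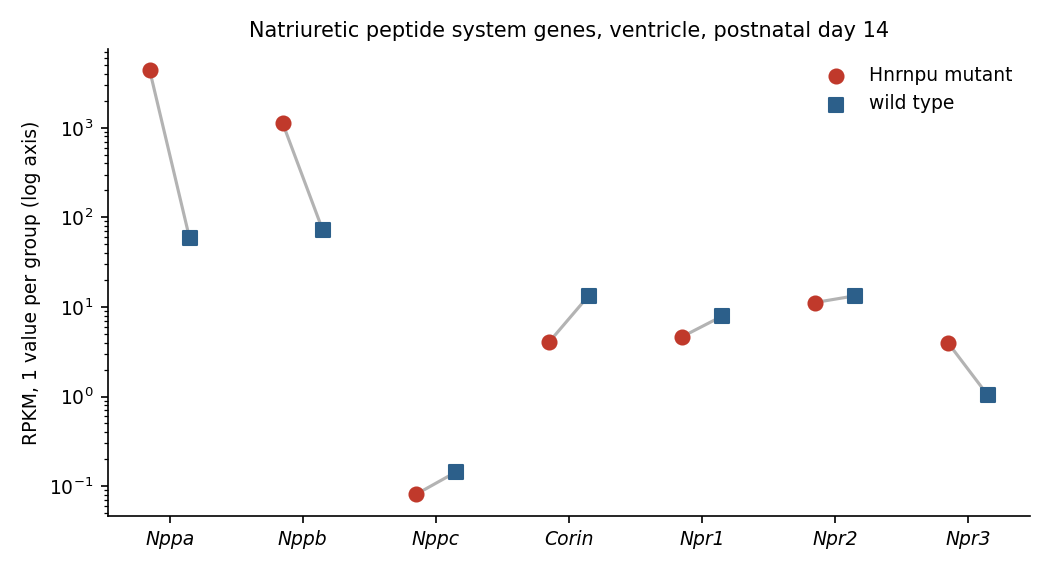
RPKM of the 7 genes on a log axis, with 1 value per group by the authors (circles, Hnrnpu mutant; squares, wild type; lines join the values of a gene). Nppa and Nppb lay at 4370 and 1120 RPKM in mutant ventricles and at 58.2 and 72.4 RPKM in wild type ventricles, and Nppc lay under all the others in both groups.

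Nppa (chromosome 4, 147374831 to 147376188, plus strand, mm9) was listed at 4370 RPKM in mutant ventricles, against 58.2 RPKM in wild type ventricles. It had the third highest level of all tested rows in mutant ventricles, against rank 245 in wild type ventricles. Its fold of 75.0 ranked 1 among the 10320 rows that reached 1 RPKM in each group. The log2 fold change was 6.23 with adjusted p = 0.00167 in the authors' deposited table. The 95% interval, from the standard error that the deposited p-value implies, ran from 3.37 to 9.09.

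Nppb (chromosome 4, 147359897 to 147361314, plus strand) was listed at 1120 RPKM in mutant ventricles, against 72.4 RPKM in wild type ventricles, and rose 15.5-fold. By level it ranked 7 in mutant and 182 in wild type ventricles. The log2 fold change was 3.95 with adjusted p = 0.000144 in the authors' deposited table, and the interval ran from 2.36 to 5.54. Nppb had the smaller fold and the smaller p of both peptide genes, and its implied standard error was 0.81, against 1.46 for Nppa. The order of the peptide genes differed between groups: the level of Nppa was 3.9 times that of Nppb in mutant ventricles and 0.804 times in wild type ventricles. Both genes together came to 5490 RPKM in mutant and 131 RPKM in wild type ventricles. The intervals of the folds overlapped, and the difference between the folds was not tested.

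Nppc (chromosome 1, 88562866 to 88567147, minus strand) was listed at 0.0806 RPKM in mutant ventricles, against 0.143 RPKM in wild type ventricles. Its log2 fold change of -0.82 had an interval from -3.61 to 1.97 (adjusted p = 0.9999 in the authors' deposited table). At this depth neither a rise like that of Npr3 nor a fall like that of Corin was detectable for Nppc.

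Corin (chromosome 5, 72691264 to 72895779, minus strand) was listed at 4.02 RPKM in mutant ventricles, against 13.4 RPKM in wild type ventricles. Its log2 fold change was -1.74 with adjusted p = 0.0364 in the authors' deposited table, with an interval from -2.79 to -0.69. It was the least secure of the 4 calls and was lost at a threshold of 0.01. The sum of Nppa and Nppb was 1370 times the level of Corin in mutant ventricles and 9.75 times in wild type ventricles. RNA levels do not measure the peptides or their cleavage. In bulk ventricles, fewer cells of a type and less RNA per cell cannot be told apart. Of 12 genes listed for ventricular myocytes, some of them not particular to the ventricle, 0 rose and Mycn fell, and 11 of 12 were below wild type. Their summed level was 4250 RPKM in mutant and 6060 RPKM in wild type ventricles, none of them at 0. Myh6, at 840 and 1660 RPKM without a call, made up the largest part of that difference. The part of these 12 genes in the lower Corin level was not tested.

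**Figure D2:**
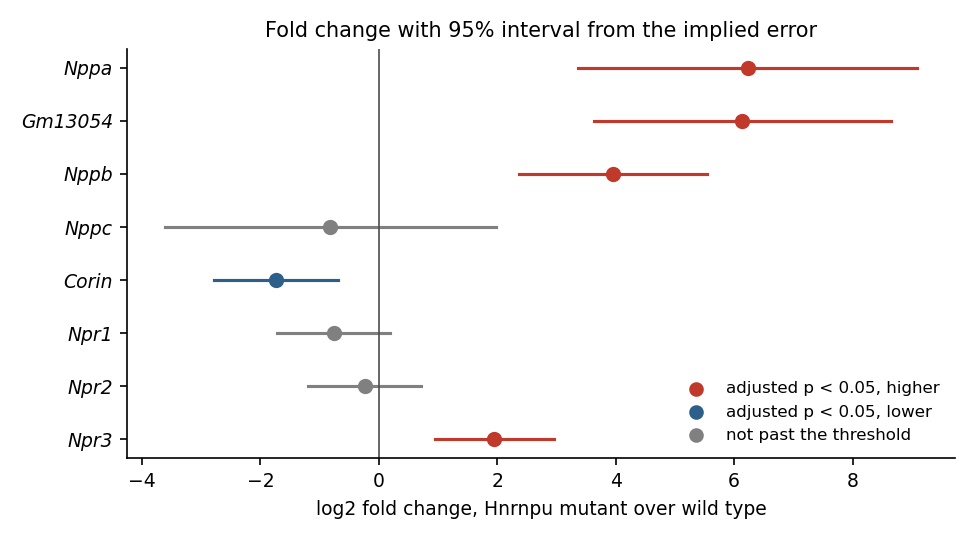
Log2 fold change of mutant over wild type for the 7 genes and Gm13054, as deposited by the authors, with the 95% interval from the implied standard error (lines). Colours give the direction of calls at an adjusted p under 0.05; the intervals of Nppc, Npr1 and Npr2 cross 0.

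Among the receptors, Npr3 (chromosome 15, 11769651 to 11835429, minus strand), the clearance receptor, rose. It was listed at 3.99 RPKM in mutant ventricles, against 1.03 RPKM in wild type ventricles. It rose 3.86-fold, or by 1.95 on the log2 scale, with adjusted p = 0.00776 in the authors' deposited table, and the interval ran from 0.95 to 2.95. In the mouse, Npr3 is known as a marker of the endocardium, the inner lining of the heart. Of 9 endocardial markers, Plvap and Vwf rose and none fell, with Plvap, an endothelial diaphragm protein, at 9.48 RPKM in mutant and 2.38 RPKM in wild type ventricles and Vwf, von Willebrand factor, at 7.79 and 1.54 RPKM. The other 7 did not pass the test, among them Nfatc1 at 2.27 and 1.47 RPKM and Cytl1 at 1.79 and 3.78 RPKM. The summed level of the 9 markers was 32.1 RPKM in mutant and 18.5 RPKM in wild type ventricles, with none at 0. Nearly all of that difference came from Plvap and Vwf, and 6 of the 9 were above and 3 below wild type. The part of these markers in the Npr3 rise was not tested.

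Npr1 (chromosome 3, 90254513 to 90269788, minus strand), the cyclase receptor for ANP and BNP, was listed at 4.63 RPKM in mutant ventricles, against 7.86 RPKM in wild type ventricles (log2 fold change -0.76, interval from -1.72 to 0.19, adjusted p = 0.587 in the authors' deposited table). Npr2 (chromosome 4, 43644807 to 43664116, plus strand), the cyclase receptor for C-type peptide, was listed at 11.2 RPKM in mutant ventricles, against 13.3 RPKM in wild type ventricles (log2 fold change -0.24, interval from -1.20 to 0.72, adjusted p = 1 in the authors' deposited table). Neither passed the test, and the intervals leave room for a fall of more than 2-fold in each. Each also overlaps a row on the other strand, Gm16048 for Npr1 and Gm12473 for Npr2. These were listed at 6.51 and 13.0 RPKM and at 4.74 and 3.23 RPKM in mutant and wild type ventricles, and reads of such pairs cannot be told apart without strand.

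The receptors kept the order Npr2, Npr1, Npr3 by level per length in both groups, but the lower ranks drew together. Npr1 was 1.16 times as high as Npr3 in mutant ventricles and 7.63 times in wild type ventricles. Npr3 made up 20.1% of the summed receptor RPKM in mutant and 4.64% in wild type ventricles, while the sum itself was 19.8 and 22.2 RPKM. With 1 value per group, whether neighbours in this order differ beyond the spread between animals cannot be given.

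**Figure D3:**
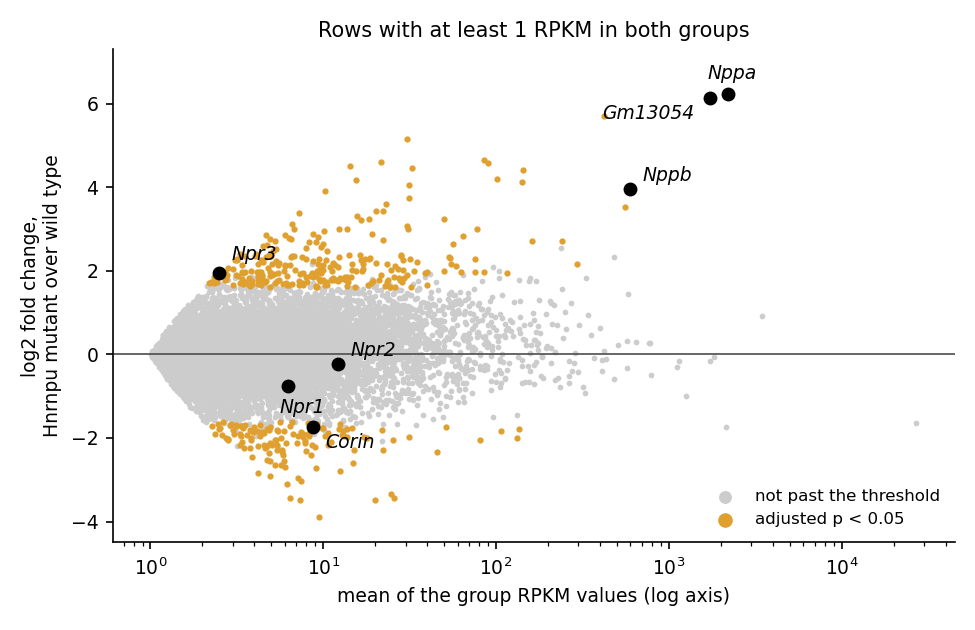
Log2 fold change of mutant over wild type against the mean of the group RPKM values (log axis) for the 10320 rows that reached 1 RPKM in each group, with 6 genes of the system and Gm13054 in black; Nppc lies under the minimum. Nppa, Gm13054 and Nppb combine high levels with large rises, and Npr3 and Corin lie near the inner edge of the rows past the threshold.

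Gm13054, a processed transcript on the minus strand (chromosome 4, 147375200 to 147378123), overlaps 989 of the 1358 bases spanned by Nppa. It was listed at 3420 RPKM in mutant ventricles, against 48.4 RPKM in wild type ventricles, with a log2 fold change of 6.14 and adjusted p = 0.000216 in the authors' deposited table. Its level was 0.783 times that of Nppa in mutant and 0.832 times in wild type ventricles. The use of strand is not given in the sources used here, so reads of Nppa and Gm13054 cannot be told apart, and the antisense row is no second observation.

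Nppb and Nppa are neighbours, with their start coordinates 14934 bases apart on the same strand, which raised the question of how far along the chromosome the rise reached. Of 12 other rows within 250 kb with a mean of at least 1 RPKM, 0 passed the test in the authors' deposited table and 1 had an unadjusted p under 0.05, 2510039O18Rik, at 12.2 RPKM in mutant and 5.48 RPKM in wild type ventricles (p = 0.0214, adjusted p = 0.248). Their log2 fold changes ran from -0.64 to 1.16. Clcn6, a chloride and proton exchanger whose lower coordinate lies 3.54 kb from that of Nppa, was listed at 2.13 RPKM in mutant and 3.32 RPKM in wild type ventricles. Mfn2, a mitochondrial fusion protein, was listed at 33.3 and 30.3 RPKM, and Plod1, a collagen lysyl hydroxylase, at 12.7 and 10.9 RPKM. Agtrap, a partner of the angiotensin receptor, was listed at 5.36 and 3.42 RPKM, Fbxo6 at 7.48 and 3.76 RPKM, and Miip at 4.59 and 4.98 RPKM. Fv1 was listed at 1.78 and 0.963 RPKM, Mad2l2 at 2.56 and 1.40 RPKM, Zfp933 at 0.988 and 1.25 RPKM, and the pseudogene Gm13202 at 6.24 and 7.70 RPKM. Below that level, Ptchd2, 236 kb away, passed the test at 0.132 RPKM in mutant and 0.00227 RPKM in wild type ventricles; it was named after its value was seen.

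**Figure D4:**
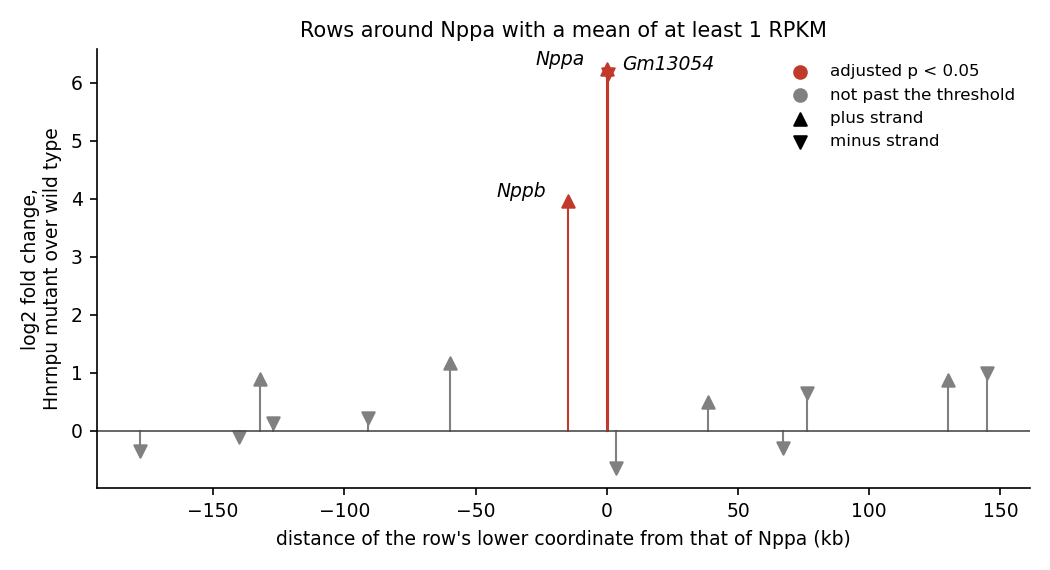
Log2 fold change of rows within 250 kb of Nppa and with a mean of at least 1 RPKM, against the distance of their lower coordinate from that of Nppa in kb (triangles up, plus strand; down, minus strand). Nppb, Nppa and the overlapping Gm13054 stand at 3.95 or more, and the other 12 rows lie between -0.64 and 1.16.

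Genes that act on the peptides were taken from a list of 13, of which 12 had a test. None passed it in the authors' deposited table and 4 had an unadjusted p under 0.05, a count without a background share. With a median log2 fold change of 1.07, beside 0.07 over all tested rows, 8 were above and 4 below wild type. The count above and the median include Chga and Klk1, near the floor at 0.00477 and 0.0102 RPKM in mutant and 0 in wild type ventricles. Pam, an amidating enzyme abundant in atrial granules, was listed at 60.6 RPKM in mutant and 17.0 RPKM in wild type ventricles (adjusted p = 0.133 in the authors' deposited table). Pcsk6, the convertase that activates corin, was listed at 13.8 and 10.6 RPKM (adjusted p = 0.974 in the authors' deposited table). Furin, which cuts the BNP precursor, was listed at 10.4 and 5.46 RPKM, and Mme, the peptide-degrading neprilysin, at 0.269 and 0.833 RPKM. Ostn, a muscle peptide that binds Npr3, was listed at 0 in mutant and 0.0240 RPKM in wild type ventricles.

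Of 22 genes of cGMP signalling, 3 fell and 0 rose, beside 1.48% lower and 2.03% higher over all tested rows. Their median log2 fold change was -0.24, with 9 above and 13 below wild type, and 5 had an unadjusted p under 0.05. Rgs2, a brake on G protein signalling that the cGMP-dependent kinase activates, fell to 2.67 RPKM in mutant ventricles, against 11.5 RPKM in wild type ventricles (log2 fold change -2.11, adjusted p = 0.0038 in the authors' deposited table). Pde1c, a phosphodiesterase that breaks down cGMP and cAMP, was listed at 0.749 RPKM in mutant and 3.04 RPKM in wild type ventricles (log2 fold change -2.02, adjusted p = 0.00602 in the authors' deposited table). Nos2, the inducible nitric oxide synthase, was listed at 0.184 and 1.09 RPKM (log2 fold change -2.56, adjusted p = 0.0054 in the authors' deposited table). The kinase Prkg1 at 0.793 and 0.960 RPKM and the phosphodiesterases Pde2a at 9.85 and 10.6 RPKM, Pde5a at 1.14 and 0.904 RPKM and Pde9a at 2.38 and 2.16 RPKM did not pass the test. Nor did Pde1a, at 2.52 and 1.17 RPKM, or Pde1b, at 1.32 and 0.922 RPKM, both above wild type, unlike Pde1c. Nos3, the endothelial synthase, was listed at 10.8 and 18.9 RPKM in mutant and wild type ventricles without a call.

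Kin of the receptors and of corin were looked at next. The 5 receptor guanylyl cyclases outside the natriuretic peptide family reached at most 0.0232 RPKM in mutant and 0.00463 RPKM in wild type ventricles, with 0 calls and 0 at an unadjusted p under 0.05. Of 13 type II transmembrane serine proteases, the class to which corin belongs, 10 had a test and 1 passed it: St14, which codes for matriptase, rose to 0.463 RPKM in mutant ventricles, against 0.0630 RPKM in wild type ventricles (adjusted p = 0.0203 in the authors' deposited table). The highest of these proteases reached 0.463 RPKM in mutant and 0.416 RPKM in wild type ventricles, whereas Corin stood at 4.02 and 13.4 RPKM.

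Of 28 transcription factors and cofactors tied to the Nppa and Nppb promoters, 1 rose and 0 fell, beside 3.51% of all tested rows called. Their median log2 fold change was 0.11, with 15 above and 13 below wild type, and 5 had an unadjusted p under 0.05. Ankrd1, a stretch-responsive ankyrin repeat protein, rose to 1020 RPKM in mutant ventricles, against 89.1 RPKM in wild type ventricles (log2 fold change 3.52, adjusted p = 0.0193 in the authors' deposited table). Factors that bind the GATA, NKX2-5 and T-box motifs printed above did not pass the test. Gata4 was listed at 23.2 RPKM in mutant and 12.6 RPKM in wild type ventricles, Gata6 at 17.2 and 17.3 RPKM, Nkx2-5 at 32.4 and 17.7 RPKM, and Tbx5 at 1.07 and 2.29 RPKM. For Tead1, which binds MCAT, the row counted in the list was a processed transcript, and no value is given for the factor. Mef2a, a factor of muscle genes, was listed at 12.6 and 26.0 RPKM, and Tbx20 at 14.4 and 5.62 RPKM (adjusted p = 0.123 in the authors' deposited table).

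Nppa is the leading product of atrial muscle, so atrial markers were set beside it. Of 13 atrial myocyte markers, 1 rose and 1 fell, beside 3.51% of all tested rows called. Below wild type were 9 of them, with a median log2 fold change of -0.39, and 3 had an unadjusted p under 0.05. Sln, the atrial regulator of the calcium pump, was listed at 1.66 RPKM in mutant and 6.46 RPKM in wild type ventricles, Myl7, the atrial light chain, at 17.7 and 27.9 RPKM, and Myl4 at 6.85 and 4.28 RPKM. Mybphl was listed at 0.639 and 0.941 RPKM, and Bmp10 at 0 in mutant and 0.0457 RPKM in wild type ventricles. Kcnj3, an atrial potassium channel subunit, fell to 0.306 RPKM in mutant ventricles, against 3.28 RPKM in wild type ventricles (adjusted p = 6.38e-07 in the authors' deposited table), and Dkk3, a secreted glycoprotein, rose to 13.6 RPKM, against 3.74 RPKM (adjusted p = 0.0113 in the authors' deposited table). The summed level of the 13 markers was 54.1 RPKM in mutant and 62.2 RPKM in wild type ventricles, a sum of opposite differences. Nppa was 75.0-fold higher in mutant, and the part of atrial cells in that rise was not tested.

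**Figure D5:**
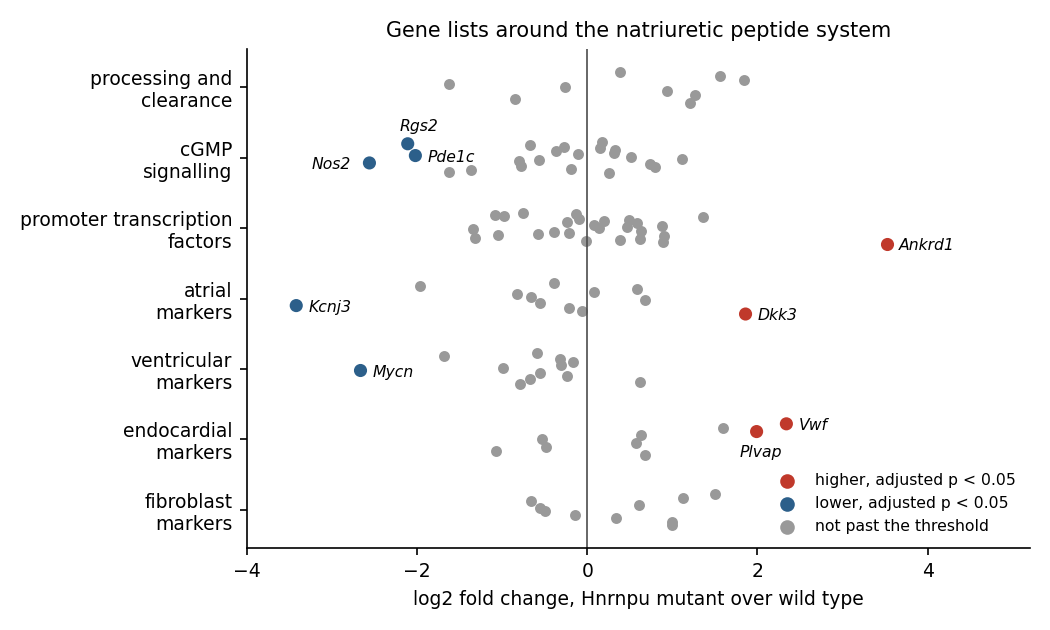
Log2 fold change of mutant over wild type for the tested genes of 7 lists, with names for those past an adjusted p of 0.05; genes listed at 0 in a group are left out. The cGMP list has 3 genes lower, the transcription factor list has Ankrd1 higher, and the atrial list has 1 gene each way.

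The genes whose pair of levels was most like that of a member were found by the distance between log2 RPKM values over the 2 groups, among the 10320 rows that reached 1 RPKM in each. For Nppa these were Gm13054 at a distance of 0.44, Nppb at 1.99 and Ankrd1 at 2.19, and the nearest of these overlaps it on the other strand. For Nppb, Ankrd1 was the nearest at 0.33, followed by Acta2, smooth muscle actin, at 1.22 and Mgp, matrix Gla protein, at 1.35. Acta2 was listed at 802 RPKM in mutant and 158 RPKM in wild type ventricles without a call, and Mgp at 480 and 107 RPKM with adjusted p = 0.0203 in the authors' deposited table. For Npr3 the nearest were Fam20c, a secretory pathway kinase, at 0.08, Tmem97 at 0.09 and Slc45a3 at 0.13. For Corin they were Srpk3, a muscle kinase of SR proteins, at 0.12, and Gm12563 and Grip2, both at 0.13. Srpk3 was listed at 4.29 RPKM in mutant and 12.7 RPKM in wild type ventricles (adjusted p = 0.0634 in the authors' deposited table). A likeness over 2 groups describes a level and a fold and nothing more.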

How the data were processed

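RNA sequencing of 4 ventricle samples, 2 per group, was used as 1 deposited table. Per the file headers, the authors gave 1 RPKM value per group, a fold (ratio) of mutant over control with its log2 value, and a p-value with an adjusted p-value per row. Per the submitters' processing notes, Bowtie 0.12.9, DESeq and build mm9 were used, with no role stated for each. The counter, annotation and use of strand are not given in those sources. From the deposited columns, a row was called at an adjusted p under 0.05. The ratio of RPKM values came within 0.971% of the deposited fold in rows with at least 1 RPKM, and a recomputed Benjamini-Hochberg adjustment differed from the deposited one by at most 0.593%.

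The standard error behind each interval is the log2 fold change divided by the normal score of the deposited p-value, which assumes a normal estimate. The calculation was run on simulated normal estimates, where the standard error is recovered by construction. That checks the arithmetic and not whether the assumption holds for the deposited p-values. Read numbers came from steps in RPKM times length of small RNAs, with GENCODE M21 exonic lengths, so they are approximate and cover counting error only. The 12360 rows listed at 0 in both groups had no test. Genes named are the 7 members, Gm13054, rows near Nppa, the called genes of each list (at most 6) with its 2 most abundant uncalled ones, and the 3 nearest rows per called member; a few further list members are given for their known role, chosen after their values were seen. The members and lists were chosen with earlier results of these data known. Where a list symbol was repeated, its most abundant row was taken. The values of 1 row near Nppa are not reported here. Promoter sequences are from RefSeq (GRCm38.p6), which held all 7 genes. Python 3.11.15, numpy 2.4.6, pandas 2.3.3 and scipy 1.17.1 were used. Thresholds, the rows adjusted over, pseudocounts and centring were varied.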

Additional observations from a re-analysis of the deposited data

How the results depend on the processing

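The 4 calls among the 7 genes held when p was adjusted over rows with a mean of at least 1 RPKM (Corin 0.0241). At 0.01, 3 held and Corin was lost. At 0.1 all calls hold by definition, and no member was added. An equal pseudocount cannot change the sign of a log2 fold change, so only its size is informative. With 1 RPKM added, Npr3 went from 1.95 to 1.30, Nppc from -0.82 to -0.08 and Nppa from 6.23 to 6.21. Centring took 0.09 from each log2 fold change. At a threshold of 0.01, 497 rows were called in place of 859, with 0 promoter transcription factors in place of 1 and 1 atrial marker in place of 2; the stricter threshold itself removes calls. At 0.1, 1 processing gene was called in place of 0. Adjusted over rows with a mean of at least 1 RPKM, 1 row near Nppa was called in place of 2, since Ptchd2 is below that level. The row that stayed was Gm13054, which overlaps Nppa and is no second observation.

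No paired analysis was possible because the table holds 1 value per group; for the same reason leaving out each replicate, edgeR and DESeq2 were not run. Depth limits Nppc most.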

Other observations

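Markers of the other cells of the ventricle, listed for the cell types that hold the receptors or surround the myocytes, did not all differ in the same direction between mutant and wild type ventricles. Of 11 macrophage markers, 10 were above wild type and 1 passed the test in the authors' deposited table: Lyz2, lysozyme, rose to 90.5 RPKM in mutant ventricles, against 18.4 RPKM in wild type ventricles (adjusted p = 0.00209). Of 10 mural cell markers, Tagln, an actin-binding protein of smooth muscle, rose to 42.6 RPKM, against 9.76 RPKM in wild type ventricles (adjusted p = 0.00299 in the authors' deposited table). The summed level of the mural list was 1360 RPKM in mutant and 377 RPKM in wild type ventricles, of which Acta2 and Des, also expressed by myocytes, made up the larger part, and 6 of the 10 were above and 4 below wild type. Among pericyte markers without a call, Abcc9 was listed at 7.46 RPKM in mutant and 19.2 RPKM in wild type ventricles, Rgs5 at 57.9 and 76.6 RPKM, Notch3 at 7.78 and 10.9 RPKM, Pdgfrb at 14.4 and 14.2 RPKM and Kcnj8 at 10.5 and 9.94 RPKM.

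Endothelial, fibroblast and conduction system markers gave 0 calls among 11, 10 and 10 in the authors' deposited table, with 1, 2 and 1 at an unadjusted p under 0.05. Their median log2 fold changes were -0.42, 0.47 and -0.68, and members lay on both sides of wild type in each list. Of the endothelial markers 3 were above and 8 below, with Pecam1 at 32.4 RPKM in mutant and 20.0 RPKM in wild type ventricles and Cdh5 at 31.8 and 42.8 RPKM. Of the fibroblast markers 6 were above and 4 below, with Tcf21 at 24.0 and 8.47 RPKM and Lum at 39.9 and 62.9 RPKM. Of the conduction system markers 3 were above and 7 below, with Id2 at 14.6 and 5.10 RPKM and Hcn4 at 0.153 and 0.235 RPKM. The endothelial list shares Emcn with the endocardial one, and the conduction list shares Gja5 with the atrial one.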
